A study of Mus musculus with 34 samples.

Results

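The comparison described here set a high fat diet (HFD) against a control diet (CHOW) after 20 weeks of feeding, in the stromal vascular fraction (SVF) of visceral fat. It rests on the 11 libraries that the labels place at 20 weeks, 5 CHOW and 6 HFD, out of 34 libraries in the series. All were from male C57BL/6J mice with no genetic change and no drug, put on their diet at 6 weeks of age and therefore 26 weeks old at sampling. The HFD (D12492) drew 60% of its calories from fat. CHOW mice ate 1 of 2 purified control diets, D12450B or D12450K, and which library had which is not stated. Food was withdrawn for the last hours before the tissue was taken. The SVF is the pellet that remains when fat is digested with collagenase and the floating adipocytes are skimmed off, and it was treated with a buffer that lyses erythrocytes. It therefore mixes macrophages, other leukocytes, fibroblast progenitors, endothelium and mesothelium. Stranded poly(A) RNA-seq gave 1 value per gene and library in TPM, transcripts per 1000000, a level scaled to transcript length. Since TPM have the same total in every library, the number of reads behind each value is unknown. In such a mixture fewer cells of a type and less RNA per cell cannot be told apart. The labels number the replicates without saying that each was a separate mouse or pool, so the p-values below measure only the spread between these libraries.

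Macrophages are the most plastic of these cells. In lean fat, resident macrophages sit along vessels, carry scavenger receptors and lectins, and share the tissue with regulatory T cells, eosinophils and group 2 innate lymphoid cells. In obese visceral fat, macrophages gather around dying adipocytes, take up their lipid and break it down in lysosomes, whose low pH is set by the V-ATPase proton pump. Mesothelium covers the surface of the fat pad, and mast cells are long-lived granulocytes of connective tissue that store proteases.

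Libraries were first checked for RNA of cells that should not be in the fraction. The 14 germ cell genes (protamines and other sperm transcripts) summed to 0.895 to 291 TPM in CHOW, and to 153, 288, 2575, 3410, 14126 and 29.3 TPM in HFD replicates 1 to 6. HFD replicates 3, 4 and 5 thus stood apart, and counts of gene lists below are also given without them. Perigonadal fat lies against the testis and epididymis. Genes of epididymal epithelium did not follow the germ cell genes, with sums of 18.7 to 208 TPM in CHOW and 0 to 29.5 TPM in HFD. Where the germ cell RNA came from was not tested. CHOW replicate 2 had the highest macrophage levels of its group, with a mean log2(TPM + 1) of 9.06 over the lipid-associated macrophage genes against 6.94 to 7.59 in the other CHOW libraries. Hemoglobin genes took 2.73% to 12.97% of TPM in CHOW and 1.26% to 3.04% in HFD. Mean log2(TPM + 1) of 17 adipocyte genes was 5.33 to 6.04 in CHOW and 4.54 to 5.30 in HFD, without overlap. The male-specific gene Ddx3y was at 53.4 TPM or more in every library and Xist, of the inactive X chromosome, at 0.06 TPM or less, as in male tissue.

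**Figure D1:**
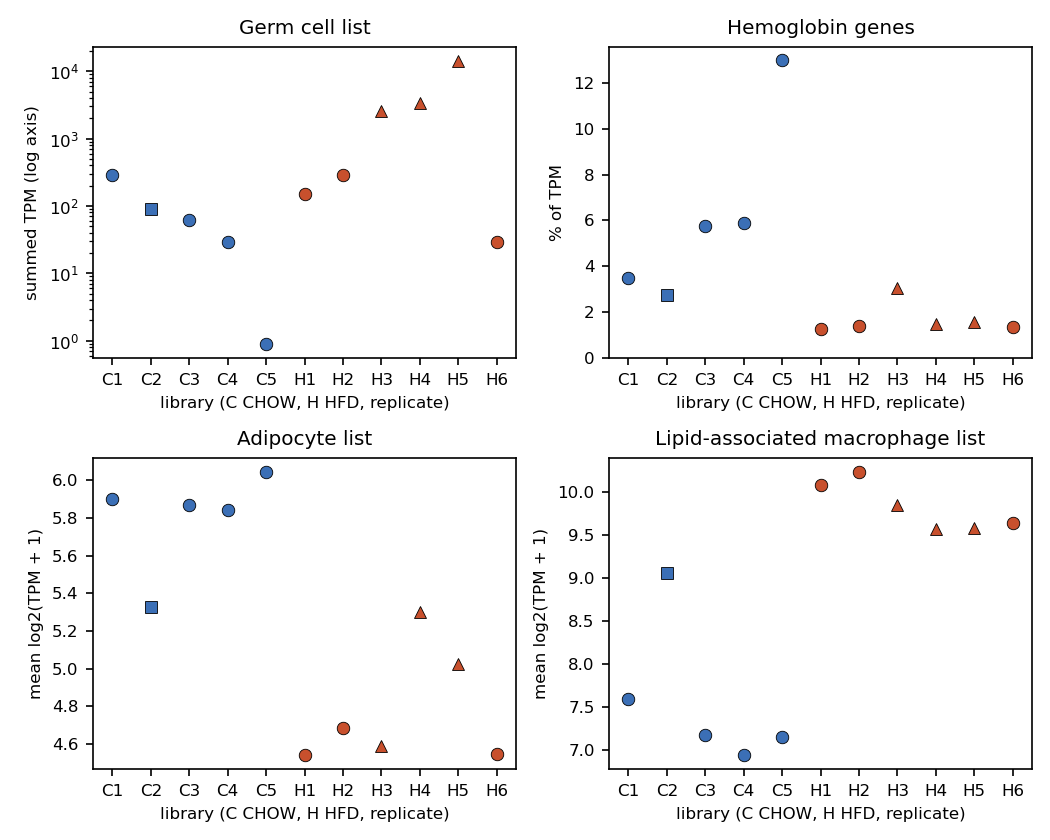
Summed TPM of the germ cell list on a log axis, percentage of TPM from hemoglobin genes, and mean log2(TPM + 1) of the adipocyte and lipid-associated macrophage lists, for CHOW libraries 1 to 5 (blue, C) and HFD libraries 1 to 6 (red, H). HFD replicates 3 to 5 (triangles) held 2575 to 14126 TPM of germ cell RNA, and CHOW replicate 2 (square) was the highest CHOW library for macrophage genes. Adipocyte and lipid-associated macrophage values did not overlap between diets.

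A gene passed the test (is called) where limma, fitted to log2(TPM + 1) of 16808 genes over all 21 libraries of 8 and 20 weeks, gave a Benjamini-Hochberg adjusted p under 0.05 for HFD against CHOW at 20 weeks. Fold changes below are on this log2(TPM + 1) scale with their standard error (SE), which understates changes of low genes. HFD changed 2405 genes (14.3% of those tested), of which 1566 rose (9.32%) and 839 fell (4.99%). The single libraries of both diets did not overlap for 754 of the risen and 448 of the fallen genes, where 5.5% of all tested genes lay wholly higher and 3.69% wholly lower in HFD. The median log2 fold change over all genes was 0.08. Quantile normalization moved that median to -0.05 and called 1648 genes higher and 1854 lower, a share of 47.1% higher against 65.1%. Among genes with larger changes, 214 rose and 66 fell by more than 2 on the log2 scale. Of these 214, 163 (76.2%) followed the order of germ cell RNA among the HFD libraries, as did 313 of the 1566 risen genes (20.0%) and 7.56% of all genes tested. Only 6 of the 313 were called without HFD replicates 3 to 5, against 552 of the other 1253. That order places these replicates highest, so leaving them out lowers the HFD mean of each of the 313 by definition. A fit with fewer HFD libraries also has less power, so the contrast decides nothing about the source of these genes. With those libraries left out, 570 of the 16808 genes were called higher and 377 lower. List counts below are to be read against 9.32% and 4.99% in the full fit, and against 570 and 377 of 16808 without those libraries. Of 740 list genes 36 are in more than 1 list, so counts of different lists are not independent. Cfd counts among complement and adipocyte genes, Lipa among lipid-associated macrophage and lysosomal genes, and Atp6v0d2 among lipid-associated macrophage and V-ATPase genes.

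The counts of calls moved by over 1.5 times with some single libraries: 845, 752, 701 and 993 genes rose without CHOW replicate 3, CHOW replicate 4, CHOW replicate 5 and HFD replicate 4, and 520 and 501 fell without CHOW replicate 3 and CHOW replicate 4. With the mean of the adipocyte genes as a covariate, which itself did not overlap between diets, 30 genes were called higher and 72 lower. That fit called none of the lipid-associated, general macrophage, mast cell, mesothelial, interferon, V-ATPase or cholesterol efflux genes described below. It called 1 of the lysosomal, 5 of the resident macrophage and 1 of the regulatory T cell genes. The list medians were 1.04 with the covariate against 1.94 for lipid-associated macrophages, 1.13 against 1.37 for mast cells, -1.43 against -1.92 for mesothelium, -0.66 against -1.01 for interferon, -0.998 against -1.51 for resident macrophages, -1.21 against -1.22 for regulatory T cells and 0.07 against 0.54 for the V-ATPase. Medians of lysosomal, general macrophage and cholesterol efflux genes were 0.28 against 0.83, 0.12 against 0.70 and 0.27 against 0.76. Whether adipocyte content takes part in those results was not tested, and in this design it cannot be told apart from diet.

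**Figure D2:**
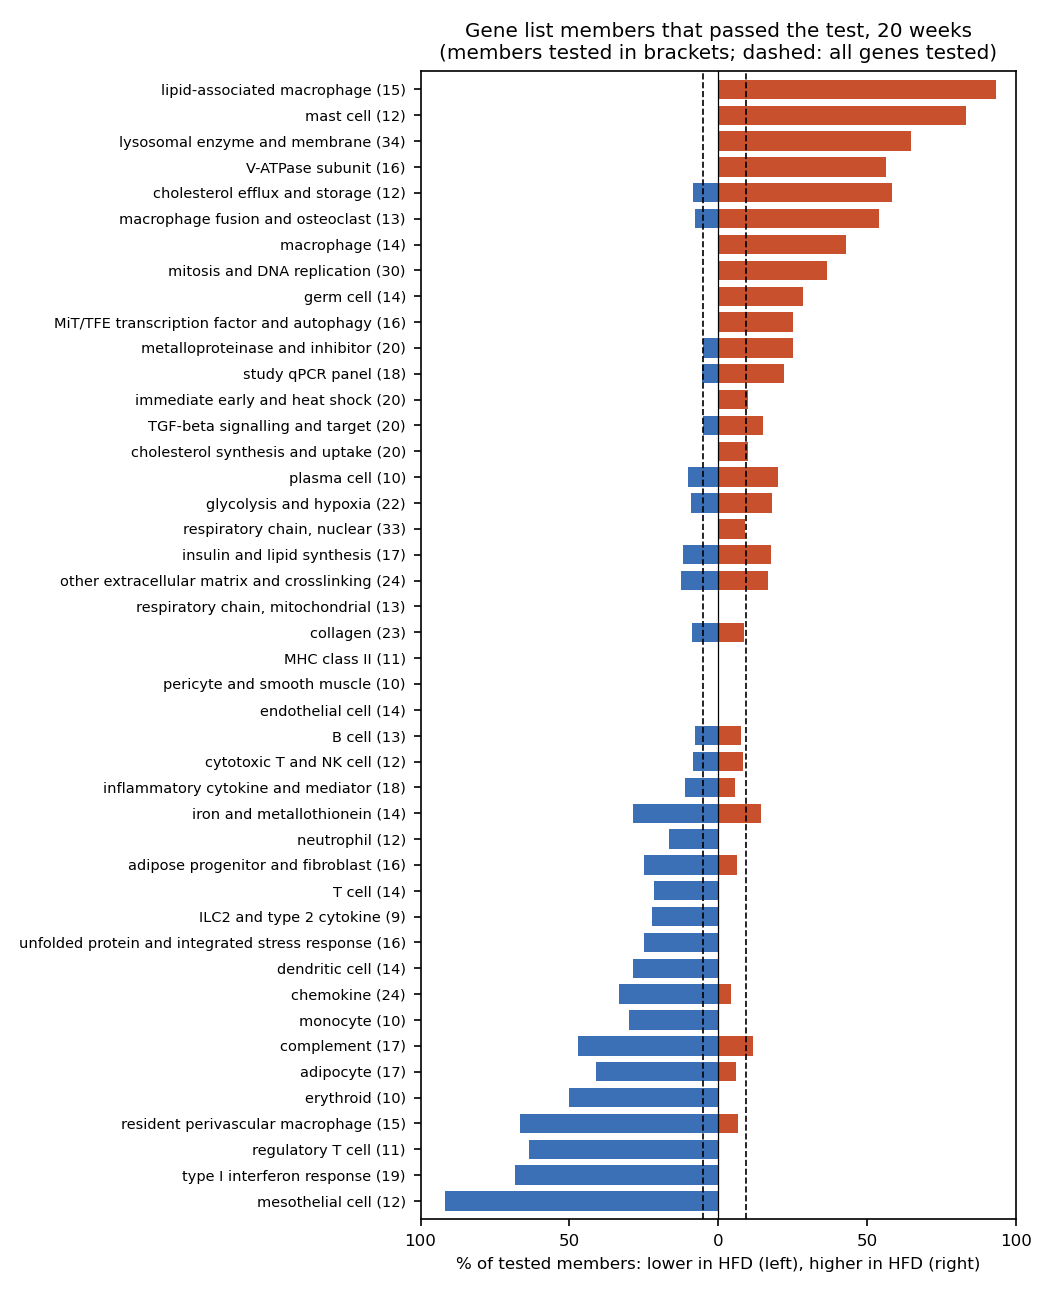
Percentage of the tested members that were called higher in HFD (red, right) or lower in HFD (blue, left) at 20 weeks, for gene lists with 9 or more members tested. The number tested is in brackets, and dashed lines mark the percentages over all genes, 9.32% and 4.99%. Shorter lists, the eosinophil list among them, are not shown. Lipid-associated macrophage, mast cell and lysosomal lists lie at the right end, and mesothelial, resident macrophage, interferon and regulatory T cell lists at the left end.

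Genes of lipid-associated macrophages rose nearly as a whole. Of 15 tested, 14 rose (9.32% over all genes) and none fell, with a median log2 fold change of 1.94, and 12 were called without HFD replicates 3 to 5. Gpnmb, a membrane glycoprotein of lysosome-rich macrophages, measured 81.4, 575, 72.6, 49.4 and 79.5 TPM in CHOW replicates 1 to 5 and 1305 to 2394 TPM (median 1460.0) in HFD. Every HFD library lay above CHOW replicate 2, the highest of its group (log2 fold change 3.94 ± 0.52, adjusted p = 8.4e-05). Trem2, the lipid-sensing receptor that gives these cells their signature, was at 68.5, 266, 52.9, 41.6 and 32.7 TPM in CHOW and 493 to 909 TPM (median 577) in HFD, again with no overlap (log2 fold change 3.23 ± 0.46, adjusted p = 0.00017). Mmp12, the macrophage elastase, was at 54.3, 644, 46.8, 15.4 and 59.9 TPM in CHOW and 659.8 to 2072 TPM (median 1152) in HFD (log2 fold change 4.07 ± 0.71, adjusted p = 0.00095). CHOW replicate 2 reached nearly the lowest HFD library, and the other 4 CHOW libraries lay far below. Spp1 (osteopontin), the lipoprotein lipase Lpl and the integrin Itgax (CD11c) rose by 3.44 ± 0.77, 1.94 ± 0.31 and 2.94 ± 0.53. The scavenger receptor Cd36, at 0.68 ± 0.24, was the 1 member not called (adjusted p = 0.062).

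General macrophage genes gave fewer calls. Adgre1 (F4/80), Cd68 and the signalling adaptor Tyrobp rose by 1.38 ± 0.28, 1.43 ± 0.26 and 1.31 ± 0.30. In all 6 of 14 in this list rose (median 0.70), but 3 without HFD replicate 1, 2 or 3 or CHOW replicate 3, 4 or 5, and 3 without HFD replicates 3 to 5. Csf1r, the receptor that macrophages need to survive, was at 266 to 438 TPM in CHOW and 311 to 538 TPM (median 407) in HFD (log2 fold change 0.24 ± 0.20, adjusted p = 0.44). Among inflammatory mediators 1 of 18 rose and 2 fell, against 9.32% and 4.99% over all genes (1 higher and 1 lower without HFD replicates 3 to 5). The fallen count was 1 without CHOW replicate 3, 4 or 5. Il23a, a subunit of interleukin-23, rose by 1.84 ± 0.44, and Cd86, a costimulatory ligand, fell (-1.02 ± 0.22). Tnf, Il1b and Il6 differed by 0.54 ± 0.39, 0.87 ± 0.63 and -0.30 ± 0.51, with adjusted p of 0.38, 0.37 and 0.73.

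**Figure D3:**
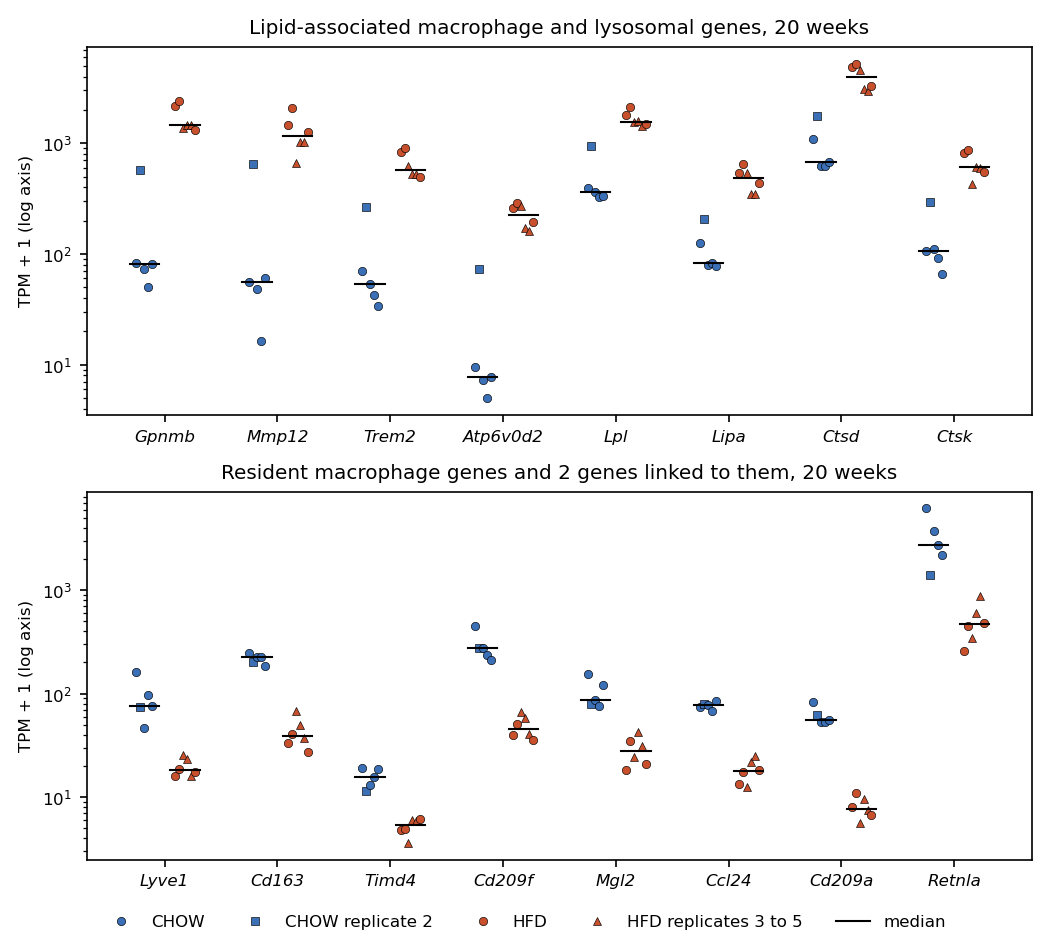
TPM + 1 on a log axis in each CHOW (blue) and HFD (red) library of 20 weeks for 8 lipid-associated macrophage and lysosomal genes (top) and 8 genes of resident macrophages or linked to them (bottom), with the median as a bar. Gpnmb, Trem2 and Atp6v0d2 were higher in every HFD library than in any CHOW library, CHOW replicate 2 (square) included, and Lyve1, Cd163 and Cd209a lower in every HFD library.

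The V-ATPase pump has a soluble V1 part that burns ATP and a V0 part that carries protons through the membrane. In HFD 9 of 16 subunit genes rose and none fell (median 0.54). Atp6v0d2, the V0 subunit d isoform of macrophages and osteoclasts, measured 8.51, 72.3, 6.28, 3.95 and 6.79 TPM in CHOW and 161 to 288 TPM (median 226) in HFD (log2 fold change 4.25 ± 0.58, adjusted p = 0.00012). It had the highest log2 fold change of the genes named by size, a rule that took only genes without overlap between diets. Atp6v0a1 rose by 1.55 ± 0.24. Tcirg1, which encodes the a3 isoform of osteoclasts and is counted in the list of fusion and osteoclast genes, not among the 16, rose by 1.45 ± 0.27. Of the V1 subunits, Atp6v1a rose by 0.79 ± 0.21 and lost its call when CHOW replicate 5 was left out (adjusted p = 0.053). The count of 9 became 2 without CHOW replicate 5 and 4 without HFD replicate 2 or CHOW replicate 3 or 4, and 4 without HFD replicates 3 to 5. Atp6v0d1, the isoform made in most tissues, was at 104 to 147 TPM in CHOW and 119 to 184 TPM (median 149) in HFD (0.32 ± 0.19, adjusted p = 0.26).

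Lysosomal hydrolases and membrane proteins rose as a broader set, 22 of 34 with none lower (median 0.83), and 18 without HFD replicates 3 to 5. Lipa, the acid lipase that frees cholesterol and fatty acids from lipoproteins, was at 125, 204, 78.3, 82.0 and 76.1 TPM in CHOW and 343 to 653 TPM (median 483) in HFD (log2 fold change 2.13 ± 0.28, adjusted p = 8.2e-05). Ctsd, the aspartic protease cathepsin D, was at 1079, 1772, 628, 615 and 679 TPM in CHOW and 2964 to 5223 TPM (median 3962) in HFD (log2 fold change 2.16 ± 0.30, adjusted p = 0.00013). Both genes were higher in every HFD library than in any CHOW library. Ctsk, the collagen-degrading cathepsin K, rose by 2.44 ± 0.36, and Gusb, beta-glucuronidase, by 2.04 ± 0.30. Acp5, the acid phosphatase used to stain osteoclasts, rose by 2.13 ± 0.34, and Dcstamp, a protein needed for cell fusion, by 1.28 ± 0.31. Both are in the list of fusion and osteoclast genes, in which Mmp9 fell. Of 13 genes tested in that list 7 rose and 1 fell (median 0.67), with 5 higher and 1 lower without HFD replicates 3 to 5. Of 16 MiT/TFE and autophagy genes 4 rose, as many as without HFD replicates 3 to 5, among them the transcription factors Mitf (1.11 ± 0.19) and Tfeb (0.91 ± 0.22), which drive lysosomal genes. Sqstm1, an autophagy adaptor, was not called (0.05 ± 0.23).

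**Figure D4:**
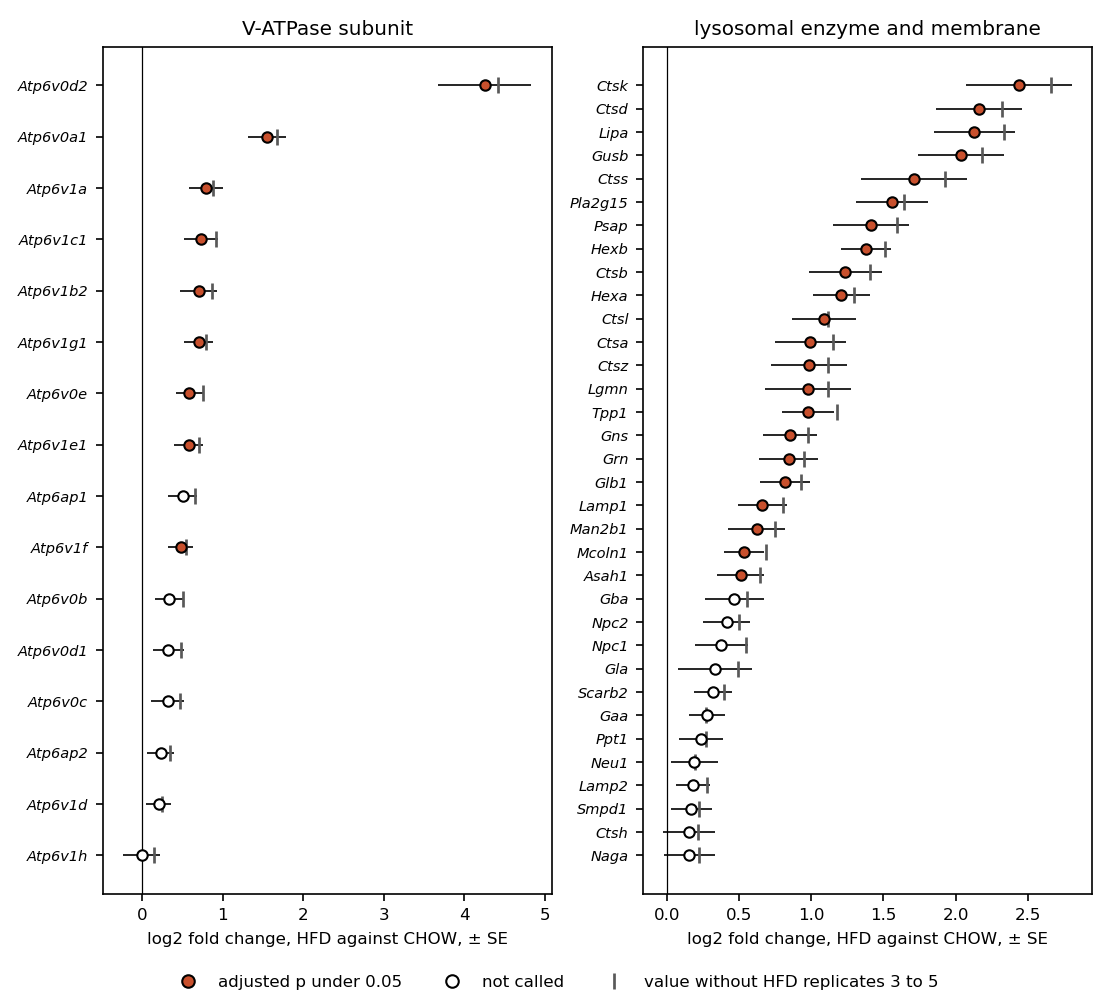
Log2 fold change of HFD against CHOW at 20 weeks (± SE) for each V-ATPase subunit (left) and lysosomal gene (right), filled where called, with the value without HFD replicates 3 to 5 as a grey tick. Atp6v0d2 stands alone on the left at 4.25, and no lysosomal gene was lower in HFD.

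MiT/TFE factors bind the E-box CACGTG, often within the longer motif TCACGTG or CACGTGA. RefSeq promoter windows (GRCm38.p6, 250 bases before to 50 after each start) were searched for these letters on both strands, and 37 of the 50 V-ATPase and lysosomal genes had a window. CACGTG stood in 4 of 11 V-ATPase genes (36.4%) and 9 of 26 lysosomal genes (34.6%), against 8.09% of all 27025 genes with a window. The longer motif, which overlaps it, stood in 4 of 11 and 8 of 26 (30.8%), against 4.29%. Among lysosomal genes 7 of 18 called and 2 of 8 not called held CACGTG, and among V-ATPase genes 2 of 5 and 2 of 6. A match describes letters in this window only. Windows of 4 genes that rose are shown because they hold the motif (in capitals): Lamp1 (chr8:13158911-13159210, plus strand), Mcoln1 (chr8:3500269-3500568, plus strand), Ctsd (chr7:142387778-142388077, minus strand) and Atp6v1a (chr16:44139210-44139509, minus strand).
Lamp1: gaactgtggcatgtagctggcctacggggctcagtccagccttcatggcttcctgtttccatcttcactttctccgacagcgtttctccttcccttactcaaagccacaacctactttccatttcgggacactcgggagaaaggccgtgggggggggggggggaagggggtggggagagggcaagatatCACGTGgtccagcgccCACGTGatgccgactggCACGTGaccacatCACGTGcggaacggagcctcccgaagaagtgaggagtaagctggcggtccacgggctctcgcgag
Mcoln1: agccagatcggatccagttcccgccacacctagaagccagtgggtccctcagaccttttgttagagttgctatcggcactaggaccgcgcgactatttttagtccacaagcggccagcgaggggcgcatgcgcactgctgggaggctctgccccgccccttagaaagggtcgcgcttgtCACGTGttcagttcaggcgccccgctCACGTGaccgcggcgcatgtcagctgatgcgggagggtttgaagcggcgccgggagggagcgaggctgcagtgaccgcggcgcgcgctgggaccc
Ctsd: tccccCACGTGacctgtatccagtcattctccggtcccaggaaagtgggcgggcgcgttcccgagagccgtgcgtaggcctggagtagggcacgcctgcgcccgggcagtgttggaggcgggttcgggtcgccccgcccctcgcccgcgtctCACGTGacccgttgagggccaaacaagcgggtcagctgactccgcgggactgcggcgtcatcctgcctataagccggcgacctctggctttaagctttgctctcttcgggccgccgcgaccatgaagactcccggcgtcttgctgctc
Atp6v1a: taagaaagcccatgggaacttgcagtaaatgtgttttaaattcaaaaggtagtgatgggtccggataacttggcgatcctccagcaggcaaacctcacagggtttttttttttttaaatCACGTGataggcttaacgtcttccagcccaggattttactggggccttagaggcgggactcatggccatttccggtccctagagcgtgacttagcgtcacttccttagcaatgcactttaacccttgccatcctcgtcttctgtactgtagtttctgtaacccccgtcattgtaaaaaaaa
The Lamp1 window held 4 copies, starting 61, 45, 28 and 15 bases before the start site, and Mcoln1 held 2, at 71 and 45 bases before it. Those of Ctsd lay 245 and 98 bases before the start and that of Atp6v1a 131 bases before it. Lamp1, a major lysosomal membrane protein, rose by 0.66 ± 0.17, and Mcoln1, a lysosomal calcium channel, by 0.53 ± 0.14. These 2 genes were chosen for their windows after their values were seen.

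In cholesterol efflux and storage 7 of 12 genes rose and 1 fell (median 0.76), and the count of risen genes was 4 without CHOW replicate 4 and 6 without HFD replicates 3 to 5. Abcg1, which exports cholesterol to lipoproteins, measured 11.9, 27.4, 9.26, 9.13 and 10.5 TPM in CHOW and 33.6 to 82.8 TPM (median 52.3) in HFD (log2 fold change 1.98 ± 0.34, adjusted p = 0.00080). Nr1h3, the oxysterol receptor LXR alpha, rose by 1.01 ± 0.23. Nceh1, an esterase of stored cholesterol, rose by 1.74 ± 0.30, and Apoc1 fell (-1.69 ± 0.38). In cholesterol synthesis and uptake 2 of 20 genes rose, Dhcr7 (0.96 ± 0.26) and Msmo1 (0.80 ± 0.24), near the 9.32% of all genes. Both calls depended on single libraries: the count was 0 without CHOW replicate 5 and 1 without HFD replicate 2, 3 or 4 or CHOW replicate 3 or 4. It was also 0 without HFD replicates 3 to 5.

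Resident perivascular macrophage genes moved the other way, with 10 of 15 lower and 1 higher (median -1.51), and again 10 lower without HFD replicates 3 to 5. Cd163, the hemoglobin scavenger receptor, measured 244, 200.3, 225, 227 and 183 TPM in CHOW and 26.0 to 66.2 TPM (median 37.9) in HFD (log2 fold change -2.41 ± 0.22, adjusted p = 1.1e-06). Lyve1, a hyaluronan receptor, was at 159.9, 72.6, 45.3, 95.3 and 74.5 TPM in CHOW and 14.9 to 24.5 TPM (median 17.2) in HFD (log2 fold change -2.12 ± 0.23, adjusted p = 1.1e-05). For both genes the HFD values were wholly below those of CHOW. Timd4, a receptor for dying cells on long-lived macrophages, fell by 1.57 ± 0.24, the eotaxin Ccl24 by 2.13 ± 0.29 and the lectin Mgl2 by 1.86 ± 0.32. Mrc1 (CD206), a receptor shared by many tissue macrophages, was at 176 to 399 TPM in CHOW and 119 to 294 TPM (median 179.9) in HFD (log2 fold change -0.51 ± 0.23, adjusted p = 0.13).

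C-type lectins of the Cd209 family, which bind sugars on pathogens and are made by dendritic cells and macrophages, fell together. Cd209a was at 81.4, 60.9, 52.4, 52.4 and 54.5 TPM in CHOW and 4.61 to 9.84 TPM (median 6.72) in HFD (log2 fold change -2.95 ± 0.24, adjusted p = 3.4e-07). Cd209b, Cd209d and Cd209f differed by -2.86 ± 0.24, -2.79 ± 0.30 and -2.55 ± 0.26. These paralogs are alike in sequence, so reads could have been split between them. Retnla, a secreted product of alternatively activated macrophages, was at 6179, 1399, 3734, 2719.9 and 2197 TPM in CHOW and 257 to 878 TPM (median 466) in HFD (log2 fold change -2.62 ± 0.38, adjusted p = 0.00017). Its HFD libraries were all below those of CHOW.

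No monocyte gene rose. Ccr2, the receptor that brings monocytes into tissue, was at 68.3, 53.5, 22.98, 25.1 and 20.3 TPM in CHOW and 10.3 to 17.1 TPM (median 13.004) in HFD (log2 fold change -1.31 ± 0.30, adjusted p = 0.0066), with no overlap. Ly6c2 fell by 1.38 ± 0.35. Of 10 monocyte genes 3 fell, and 1 was called without HFD replicates 3 to 5.

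Mast cell genes rose, 10 of 12 with none lower (median 1.37), and the same number was called without HFD replicates 3 to 5, with a median of 2.04. Cpa3, the granule carboxypeptidase, measured 61.9, 86.8, 48.9, 59.5 and 63.6 TPM in CHOW and 75.1 to 359 TPM (median 270.3) in HFD (log2 fold change 1.71 ± 0.35, adjusted p = 0.0035). The ranges of Cpa3 overlapped. Tpsb2, a tryptase, was at 145, 185, 141, 141 and 129.8 TPM in CHOW and 191 to 864 TPM (median 539) in HFD (log2 fold change 1.66 ± 0.29, adjusted p = 0.00089), and Kit, the stem cell factor receptor, rose by 1.20 ± 0.23. Libraries of the diets did not overlap for either gene. The chymase Mcpt4 and the IgE receptor chain Fcer1a rose by 1.50 ± 0.33 and 1.54 ± 0.38. Tpsab1 (1.58 ± 0.38) is a close paralog of Tpsb2, and reads could have been shared. Gata2 and the histamine-forming enzyme Hdc were not called, the latter at 0.84 ± 0.36.

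Genes of regulatory T cells fell, 7 of 11 with none higher (median -1.22), and 6 without HFD replicates 3 to 5. Foxp3, their lineage factor, measured 2.86, 2.00, 4.80, 4.35 and 3.45 TPM in CHOW and 0.229 to 1.17 TPM (median 0.611) in HFD (log2 fold change -1.42 ± 0.26, adjusted p = 0.0014). Il2ra, the interleukin-2 receptor alpha chain, was at 11.7, 4.85, 13.2, 14.3 and 18.5 TPM in CHOW and 1.97 to 3.95 TPM (median 2.55) in HFD (log2 fold change -1.76 ± 0.27, adjusted p = 0.00028). Neither gene overlapped between diets. Klrg1, Ccr8 and Tnfrsf4 (OX40), receptors of activated tissue regulatory T cells, differed by -1.77 ± 0.28, -1.56 ± 0.36 and -1.50 ± 0.29. The list marker Ikzf2 was not called (-0.55 ± 0.26, adjusted p = 0.16). The 1 positive difference in this list, 0.42, was not called either. Among pan-T cell genes, Cd3e was at 2.40 to 5.23 TPM in CHOW and 2.11 to 4.66 TPM (median 3.36) in HFD (-0.11 ± 0.24, adjusted p = 0.81), and 3 of 14 T cell genes fell (0 without CHOW replicate 5 and 1 without HFD replicate 1 or 5 or CHOW replicate 4, and 0 without HFD replicates 3 to 5). Gzmb, the cytotoxic protease granzyme B, was at 5.97, 6.07, 6.93, 7.10 and 11.1 TPM in CHOW and 12.7 to 30.1 TPM (median 21.1) in HFD (log2 fold change 1.33 ± 0.21, adjusted p = 0.00033), above CHOW in every HFD library. Of 12 cytotoxic and NK genes Gzmb rose and Klrd1 (CD94), a receptor chain of NK cells, fell (-0.98 ± 0.28), with a list median of -0.29 and the same counts without HFD replicates 3 to 5. The call of Klrd1 was lost when CHOW replicate 1 or 4 was left out (adjusted p = 0.052 to 0.086), and Prf1 (perforin) stood at -0.19 ± 0.25 (adjusted p = 0.66).

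Of 13 B cell genes 1 rose and 1 fell, against 9.32% and 4.99% over all genes (1 higher and 0 lower without HFD replicates 3 to 5). Cd22, an inhibitory receptor of B cells, rose by 1.39 ± 0.29 and the scaffold Bank1 fell by 1.03 ± 0.25, while Ms4a1 (CD20) was at -0.24 ± 0.36 (adjusted p = 0.71). Of 10 plasma cell genes 2 rose and 1 fell (1 higher and 0 lower without HFD replicates 3 to 5), with a median of -0.56. Sdc1 (syndecan-1), which plasma cells share with epithelia and macrophages, rose by 1.71 ± 0.25 and the transcription factor Prdm1 by 1.34 ± 0.36, while the immunoglobulin constant gene Ighg2b, one of a multigene family whose reads can be split, fell (-3.11 ± 0.90). The call of Prdm1 was lost when CHOW replicate 5 was left out (adjusted p = 0.065) and that of Ighg2b when CHOW replicate 3 or 4 or HFD replicate 3 was left out (adjusted p = 0.059 to 0.082). In the list of group 2 innate lymphoid cells and type 2 cytokines 2 of 9 genes fell (1 without HFD replicates 3 to 5), Gata3 (-1.27 ± 0.31) and Il5 (-2.02 ± 0.55). The call of Il5, the eosinophil growth factor, was lost when CHOW replicate 5 was left out (adjusted p = 0.071). Il33, the alarmin that feeds these cells and regulatory T cells, was named after its value was seen and stood at 0.31 ± 0.38 (adjusted p = 0.62).

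No gene of the eosinophil or neutrophil list rose. Siglecf, a lectin of eosinophils, measured 23.9, 5.25, 6.602, 9.57 and 11.9 TPM in CHOW and 0.903 to 1.93 TPM (median 1.43) in HFD (log2 fold change -2.23 ± 0.36, adjusted p = 0.00043), without overlap. Alox15, their arachidonate lipoxygenase, differed by -2.24 ± 0.37. Prg2, the granule major basic protein, differed by -1.04 ± 0.30 and lost its call when CHOW replicate 1, 3 or 5 or HFD replicate 4 was left out (adjusted p = 0.051 to 0.089). Altogether 4 of 7 eosinophil genes fell, 2 without HFD replicates 3 to 5, and 2 without HFD replicate 4 or CHOW replicate 1, 3 or 5. Retnlg, a neutrophil granule protein, was at 303, 101, 142, 126 and 211 TPM in CHOW and 5.18 to 51.6 TPM (median 9.71) in HFD (log2 fold change -3.62 ± 0.60, adjusted p = 0.00055). Lcn2 (lipocalin-2) differed by -2.39 ± 0.54, whereas S100a8 and S100a9, the most abundant neutrophil transcripts, had differences of -1.36 ± 0.97 and -1.67 ± 1.05 that did not pass (adjusted p = 0.37 and 0.30). Of 12 neutrophil genes 2 fell, the same number as without HFD replicates 3 to 5.

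Of the 14 dendritic cell genes 4 fell, Cd209a among them, and 3 without HFD replicates 3 to 5. Ccl17, a ligand of CCR4 from dendritic cells and macrophages, measured 24.4, 9.75, 15.6, 15.4 and 27.5 TPM in CHOW and 0.750 to 5.52 TPM (median 1.81) in HFD (log2 fold change -2.47 ± 0.47, adjusted p = 0.0019). Siglech, of plasmacytoid dendritic cells, differed by -1.83 ± 0.30. The lineage genes Flt3 and Clec9a were at -0.84 ± 0.32 and -0.38 ± 0.23 with adjusted p of 0.083 and 0.28. MHC class II genes were not called in either direction, 0 of 11 with a median of -0.20.

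Of 24 chemokine genes 8 fell and 1 rose (median -0.59), with 5 lower and 0 higher without HFD replicates 3 to 5. Cxcl13, which attracts B cells, was at 44.7, 248, 13.4, 45.2 and 34.4 TPM in CHOW and 2.23 to 9.86 TPM (median 7.39) in HFD (log2 fold change -2.86 ± 0.76, adjusted p = 0.017). CHOW replicate 2 was far above the rest of its group, and the other CHOW libraries still lay above all HFD libraries. Ccl12, a CCR2 ligand, differed by -2.03 ± 0.43. Cxcl14, the 1 that rose (0.95 ± 0.31), lost its call when CHOW replicate 1, 3, 4 or 5 or HFD replicate 1, 2, 4 or 5 was left out (adjusted p = 0.062 to 0.12).

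Interferon-stimulated genes fell, 13 of 19 with none higher (median -1.01), and 10 without HFD replicates 3 to 5. Ifit1, an antiviral RNA-binding protein, measured 43.3, 39.4, 105, 135 and 140.0 TPM in CHOW and 5.88 to 45.9 TPM (median 30.7) in HFD (log2 fold change -1.71 ± 0.43, adjusted p = 0.012). Its ranges overlapped. Rsad2 (viperin) differed by -1.79 ± 0.38, and Oasl1, a regulator of the response, by -1.66 ± 0.45 with its call lost when CHOW replicate 4 or 5 was left out (adjusted p = 0.060 to 0.064). Ifnb1, the gene of interferon beta, was at 54.1, 58.8, 181, 201 and 356 TPM in CHOW and 4.21 to 53.8 TPM (median 36.8) in HFD (log2 fold change -2.43 ± 0.64), and its call was lost when CHOW replicate 5 was left out (adjusted p = 0.058).

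Complement genes fell in 8 of 17 cases and rose in 2 (0 higher and 2 lower without HFD replicates 3 to 5). The count of falls was 5 without CHOW replicate 1 or 4, and 2 without HFD replicates 3 to 5. Cfb, factor B of the alternative pathway, measured 431, 435, 736, 596 and 372 TPM in CHOW and 122 to 208 TPM (median 128) in HFD (log2 fold change -1.83 ± 0.28, adjusted p = 0.00026), without overlap. C3, its central component, was at 3812, 4526, 4341, 3416 and 3672 TPM in CHOW and 1891 to 2665 TPM (median 2032) in HFD (log2 fold change -0.90 ± 0.21, adjusted p = 0.0069), and C2 differed by -1.36 ± 0.33. The C1q chains C1qb and C1qc, made by macrophages, were those that rose, by 0.78 ± 0.24 and 0.75 ± 0.23, and C1qb lost its call when CHOW replicate 3, 4 or 5 or HFD replicate 1, 2 or 3 was left out (adjusted p = 0.060 to 0.11), as C1qc did (adjusted p = 0.060 to 0.098).

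Mesothelial genes fell, 11 of 12 (median -1.92). Krt19, a keratin of this lining, measured 54.5, 34.2, 92.6, 68.9 and 74.3 TPM in CHOW and 6.03 to 20.7 TPM (median 10.5) in HFD (log2 fold change -2.44 ± 0.45, adjusted p = 0.0014), with no overlap. Msln, mesothelin, was at 62.1, 40.5, 149, 112 and 79.7 TPM in CHOW and 9.33 to 30.4 TPM (median 20.3) in HFD (log2 fold change -2.05 ± 0.48, adjusted p = 0.0079). Upk3b, Upk1b and the mucin Muc16 differed by -2.13 ± 0.49, -2.29 ± 0.46 and -2.29 ± 0.45. Without HFD replicates 3 to 5 the median was -1.73 and 4 genes were called, and 7 were called without CHOW replicate 3.

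Of 16 progenitor genes 1 rose and 4 fell, against 9.32% and 4.99% over all genes (0 higher and 1 lower without HFD replicates 3 to 5), with Pdgfra, the receptor that marks them, at 81.8 to 132 TPM in CHOW and 67.8 to 136 TPM (median 93.7) in HFD (-0.15 ± 0.18, adjusted p = 0.61). Dpp4, a peptidase of the interstitial progenitors, was at 38.9, 16.3, 48.5, 40.9 and 36.4 TPM in CHOW and 8.49 to 18.5 TPM (median 12.4) in HFD (log2 fold change -1.37 ± 0.26, adjusted p = 0.0019), and the proteoglycan Lum rose by 0.89 ± 0.22. The fallen count was 1 without CHOW replicate 3 and 2 without HFD replicate 3 or CHOW replicate 1 or 4. None of 14 endothelial or 10 pericyte and smooth muscle genes passed, with medians of -0.13 and -0.13. The endothelial genes Pecam1 (CD31) and Cdh5 (VE-cadherin) were at 0.14 ± 0.35 and 0.05 ± 0.36.

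Of 23 collagen genes 2 rose and 2 fell (median 0.47), against 9.32% and 4.99% over all genes. Without HFD replicates 3 to 5 the counts were 1 higher and 0 lower. Col8a1 (1.17 ± 0.32) and Col4a6 (-1.12 ± 0.28) kept their calls with any 1 library left out. The risen count was 1 without HFD replicate 4 or 5 or CHOW replicate 3, 4 or 5, and the fallen count 1 without HFD replicate 1, 2 or 3 or CHOW replicate 3 or 4. Col1a1, the main fibrillar collagen, was at 230.4, 206, 236, 243 and 91.6 TPM in CHOW and 237 to 506 TPM (median 329) in HFD, and its difference of 0.83 ± 0.31 did not pass (adjusted p = 0.076). Thbs2, a matricellular thrombospondin, was at 15.4, 16.2, 14.2, 15.02 and 11.03 TPM in CHOW and 29.0 to 47.7 TPM (median 44.5) in HFD, above CHOW in every library (log2 fold change 1.46 ± 0.21, adjusted p = 0.00015). Of 24 other matrix and crosslinking genes 4 rose, Thbs2 among them, and 3 fell (2 higher and 1 lower without HFD replicates 3 to 5), with the fallen count 1 without HFD replicate 1, 2 or 3 or CHOW replicate 1, 3 or 4. The proteoglycan Bgn rose by 0.99 ± 0.24 and Fmod fell by 1.57 ± 0.39.

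Metalloproteinases moved in both directions. Mmp3 (stromelysin-1) measured 3.81, 16.97, 3.80, 5.75 and 5.62 TPM in CHOW and 21.6 to 72.4 TPM (median 40.6) in HFD (log2 fold change 2.55 ± 0.47, adjusted p = 0.0014). Mmp9, gelatinase B of neutrophils and osteoclasts, was at 45.4, 21.7, 40.4, 33.9 and 62.1 TPM in CHOW and 2.08 to 9.19 TPM (median 2.88) in HFD, below CHOW in every library (log2 fold change -3.14 ± 0.36, adjusted p = 2.0e-05). Mmp2 (gelatinase A) and Mmp11 rose by 0.97 ± 0.20 and 1.20 ± 0.29. Of 20 genes in this list 5 rose and 1 fell (3 higher and 1 lower without HFD replicates 3 to 5), and the inhibitor Timp1 was at -0.42 ± 0.51 (adjusted p = 0.63).

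The study followed 18 matrix and remodelling genes by qPCR in the same fat depot, and 4 of them rose and 1 fell here: Tgfbr1, Mmp11, Mmp2 and Col6a3 higher, Mmp9 lower. Tgfbr1, the type I receptor for TGF-beta, measured 33.1, 44.1, 27.5, 28.4 and 23.9 TPM in CHOW and 58.6 to 94.4 TPM (median 72.5) in HFD (log2 fold change 1.21 ± 0.22, adjusted p = 0.0014), without overlap. Col6a3 (0.82 ± 0.24) lost its call when CHOW replicate 3, 4 or 5 or HFD replicate 4 or 5 was left out (adjusted p = 0.055 to 0.093). The other 13 did not pass, from -0.51 ± 0.28 for Acta2 and -0.51 ± 0.22 for Fn1 to 0.89 ± 0.44 for Ccn2 and 0.96 ± 0.63 for Inhba. Col4a1, Tnc and Sparc had differences of 0.50 ± 0.29, 0.84 ± 0.36 and 0.47 ± 0.24, Itga5 and Tgfb1 of 0.28 ± 0.28 and 0.20 ± 0.18, and Tgfbr2 of -0.31 ± 0.13. With HFD replicates 3 to 5 left out, 2 of the panel were called higher. Among TGF-beta genes the integrin chain Itgb5, part of a receptor that activates latent TGF-beta, rose by 1.09 ± 0.16.

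Adipocyte transcripts, which reach this fraction in small amounts, fell in 7 of 17 cases and rose in 1. Cfd (adipsin, factor D) measured 268, 157, 250.2, 359 and 472 TPM in CHOW and 6.87 to 16.8 TPM (median 11.7) in HFD (log2 fold change -4.52 ± 0.53, adjusted p = 2.2e-05), the most negative log2 fold change of the genes named by size. Cyp2e1, an alcohol-oxidising cytochrome P450, was at 86.8, 22.1, 54.7, 87.4 and 148 TPM in CHOW and 1.54 to 5.93 TPM (median 3.65) in HFD (log2 fold change -4.01 ± 0.57, adjusted p = 0.00015). Groups did not overlap for these 2 genes, a condition of naming by size. Retn (resistin), Pck1 and Cidec differed by -2.12 ± 0.33, -2.23 ± 0.47 and -1.72 ± 0.29, and Adipoq (adiponectin) by -1.16 ± 0.29. Fabp4 and Pnpla2 were not called, at -0.62 ± 0.29 and -0.08 ± 0.16. Lep (leptin) was the 1 that rose, from 0.204 to 3.61 TPM in CHOW to 1.78 to 25.5 TPM (median 8.99) in HFD (1.63 ± 0.49), and lost its call when CHOW replicate 3, 4 or 5 or HFD replicate 1, 2 or 4 was left out (adjusted p = 0.051 to 0.10). All 7 falls were called without HFD replicates 3 to 5.

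In glycolysis and hypoxia 4 of 22 genes rose and 2 fell, against 9.32% and 4.99% over all genes (2 higher and 2 lower without HFD replicates 3 to 5). Hk3, the hexokinase of myeloid cells, rose by 1.29 ± 0.30, and Egln3, an oxygen-sensing prolyl hydroxylase, was at 12.7, 5.63, 29.3, 29.1 and 12.7 TPM in CHOW and 1.66 to 4.47 TPM (median 2.03) in HFD (log2 fold change -2.28 ± 0.38, adjusted p = 0.00057). The risen count was 2 without HFD replicate 1 or 2 or CHOW replicate 1, 3, 4 or 5 and 7 without CHOW replicate 2. Nuclear genes of the respiratory chain rose in 3 of 33 cases, near the share of all genes, and the 13 mitochondrial ones in 0. The count of 3 was 0 without CHOW replicate 4 or 5 and 1 without HFD replicate 2 or CHOW replicate 3, and 0 without HFD replicates 3 to 5. Of 17 genes of insulin and lipid synthesis 3 rose and 2 fell (1 higher and 0 lower without HFD replicates 3 to 5). The risen count there was 1 without HFD replicate 3 or 4 or CHOW replicate 3, 4 or 5, and the fallen count 1 without HFD replicate 3 or CHOW replicate 3, 4 or 5. Igf1, a growth factor that macrophages also make, was at 98.6, 111, 103, 64.2 and 61.5 TPM in CHOW and 141 to 226 TPM (median 186) in HFD (log2 fold change 1.08 ± 0.22, adjusted p = 0.0026). Of 14 iron and metallothionein genes 2 rose and 4 fell (2 higher and 2 lower without HFD replicates 3 to 5). The metal transporter Slc11a1 and the ferritin light chain Ftl1 rose by 1.03 ± 0.28 and 0.79 ± 0.21, and their count was 0 without CHOW replicate 4 and 1 without CHOW replicate 3 or 5. The ferroxidase Cp (ceruloplasmin) and the metallothioneins Mt1 and Mt2 fell by 1.18 ± 0.19, 0.65 ± 0.16 and 0.90 ± 0.19. Hmox1, which breaks down heme, differed by -1.16 ± 0.34 and lost its call when CHOW replicate 3 or 4 or HFD replicate 3, 4 or 5 was left out (adjusted p = 0.051 to 0.080). Hemoglobin genes moved the same way, with CHOW and HFD ranges of 2.73% to 12.97% and 1.26% to 3.04% of TPM, and their part in the iron result was not tested.

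Genes of mitosis and DNA replication rose in 11 of 30 cases with none lower (median 0.77). Plk1, a mitotic kinase, measured 2.75, 3.31, 2.56, 1.25 and 1.53 TPM in CHOW and 4.03 to 12.7 TPM (median 6.398) in HFD (log2 fold change 1.35 ± 0.31, adjusted p = 0.0077), and Birc5 (survivin) rose by 1.33 ± 0.32. Mki67, the antigen used to stain dividing cells, was at 7.63 to 34.6 TPM in CHOW and 27.8 to 51.3 TPM (median 42.1) in HFD, with a difference of 1.13 ± 0.39 named after its value was seen (adjusted p = 0.055). The count fell to 3 without CHOW replicate 5, 4 without HFD replicate 4 or CHOW replicate 3 or 4, 5 without HFD replicate 2 or 3, 6 without HFD replicate 5 and 7 without HFD replicate 1. Without HFD replicates 3 to 5 it was 1, with a median of 0.71, beside 570 risen genes in all. The testis holds dividing cells, and the part of germ cell RNA in this list was not tested.

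Genes outside the lists were named by size of change among called genes whose libraries did not overlap between diets. Lack of overlap was thus a condition for naming them, not a result. Rnf128, an E3 ubiquitin ligase of endosomes, measured 3.26, 22.98, 2.72, 1.48 and 2.57 TPM in CHOW and 38.3 to 86.2 TPM (median 56.6) in HFD (log2 fold change 3.47 ± 0.46, adjusted p = 8.7e-05). Htr2b, a serotonin receptor, was at 0, 2.56, 0.389, 0 and 0 TPM in CHOW and 9.65 to 19.5 TPM (median 14.5) in HFD (log2 fold change 3.42 ± 0.39, adjusted p = 2.0e-05). Syngr1, a vesicle membrane protein, the immunoglobulin-like Vsig8 and the kinase Cdk18 rose by 3.34 ± 0.45, 3.39 ± 0.50 and 3.20 ± 0.40. In all 5 genes CHOW replicate 2 was the highest of its group. That it lay below every HFD library was required by the naming rule. Cox8c, Tuba3b and Hrasls5 also stood among the 12 highest, at 3.86 ± 0.85, 3.52 ± 0.89 and 3.43 ± 0.92, and all 3 followed the order of germ cell RNA. Their HFD values ran from 1.68 to 176, 1.23 to 189 and 2.29 to 240.2 TPM. The call of Hrasls5 was lost when CHOW replicate 5 was left out (adjusted p = 0.050).

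On the side of the falls, Saa3, an acute-phase apolipoprotein of inflamed fat, was at 669, 3104, 995, 1417 and 312 TPM in CHOW and 65.1 to 190.3 TPM (median 157) in HFD (log2 fold change -2.89 ± 0.71, adjusted p = 0.011). Chil1, a chitinase-like lectin of macrophages and neutrophils, was at 20.5, 47.1, 80.8, 32.2 and 17.9 TPM in CHOW and 1.00 to 6.44 TPM (median 3.44) in HFD (log2 fold change -3.06 ± 0.52, adjusted p = 0.00077). F5 (coagulation factor V) and Inpp5j, a phosphoinositide phosphatase, differed by -2.83 ± 0.36 and -2.83 ± 0.33. None of these 4 overlapped between diets, which the naming rule required. The immunoglobulin segment Ighv1-11 differed by -3.01 ± 0.86, is one of a multigene family whose reads can be split, and lost its call when CHOW replicate 3 or 5 was left out (adjusted p = 0.076 to 0.083).

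The same diets had been compared at 8 weeks in the same table, 4 CHOW and 6 HFD libraries from mice 14 weeks old, and an interaction term tested whether the diet difference at 20 weeks differed from that at 8 weeks. It passed for 50 genes (0.297% of 16808), 27 with a positive term (HFD minus CHOW higher at 20 weeks) and 23 with a negative one, and 47 of them were called at 20 weeks themselves. Quantile normalization gave 18 positive and 86 negative terms and median-ratio scaling 29 and 55. The unadjusted p was under 0.05 for 2318 genes. The count depended on single libraries of 20 weeks. It was 22 to 28 with CHOW replicate 1, 3, 4 or 5 or HFD replicate 1, 2 or 6 left out. In the fit that left out CHOW replicate 2 it was 153. Single libraries of 8 weeks were not left out.

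Mast cell proteases were among the positive terms. Cpa3 was at 34.99 to 58.2 TPM in CHOW and 11.9 to 39.6 TPM in HFD at 8 weeks, and the interaction was 2.70 ± 0.52 (adjusted p = 0.026). Its call was lost when HFD replicate 1, 2 or 6 or CHOW replicate 1, 3 or 4 was left out (adjusted p = 0.051 to 0.057). The interaction of Tpsb2 was 2.62 ± 0.42 (adjusted p = 0.011), that of Mcpt4 2.75 ± 0.49 (adjusted p = 0.017) and that of Tpsab1 3.20 ± 0.55 (adjusted p = 0.016). Pcp4l1, a relative of the Purkinje cell protein Pcp4, gave the lowest adjusted p. It measured 1.10 to 2.88 TPM in CHOW and 1.34 to 4.30 TPM in HFD at 8 weeks, and 0.441, 1.11, 1.23, 1.26 and 1.12 TPM in CHOW and 10.8 to 18.6 TPM (median 14.4) in HFD at 20 weeks (interaction 2.75 ± 0.33, adjusted p = 0.00087). Gzmb also had a larger difference at 20 weeks (1.52 ± 0.30, adjusted p = 0.031), and its call was lost when HFD replicate 1, 2, 3 or 6 or CHOW replicate 1, 3 or 4 was left out (adjusted p = 0.051 to 0.068).

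Among negative terms were 3 of 15 resident macrophage genes (Cd163, Lyve1 and Mgl2) and 2 of 11 regulatory T cell genes (Foxp3 and Klrg1). Cd209a, counted among dendritic cell genes, Cd209d and Retnla are in neither of these lists. Cd209a was at 34.0 to 74.5 TPM in CHOW and 20.1 to 54.0 TPM in HFD at 8 weeks (interaction -2.60 ± 0.35, adjusted p = 0.0019), and Cd163 at 97.5 to 230.5 TPM in CHOW and 86.8 to 137 TPM in HFD (interaction -1.82 ± 0.32, adjusted p = 0.016). The interaction of Retnla was -3.03 ± 0.55 (adjusted p = 0.018), that of Cd209d -2.86 ± 0.44 (adjusted p = 0.0067) and that of Foxp3 -1.93 ± 0.38 (adjusted p = 0.031). The call of Foxp3 was lost when HFD replicate 1, 2, 3 or 6 or CHOW replicate 1, 3, 4 or 5 was left out (adjusted p = 0.051 to 0.076). Rnase2a, an eosinophil-associated ribonuclease, was at 2.49 to 7.39 TPM in CHOW and 4.10 to 168 TPM in HFD at 8 weeks and at 24.1, 3.89, 4.75, 2.94 and 10.4 TPM in CHOW and 0 to 1.23 TPM (median 0.456) in HFD at 20 weeks (interaction -5.69 ± 0.95, adjusted p = 0.013). Sprr1a, a cornified envelope protein, and the segment Igkv4-68, whose reads can be split among paralogs, had interactions of -2.78 ± 0.56 (adjusted p = 0.033) and -4.91 ± 0.88 (adjusted p = 0.017), and that of Sprr1a lost its call when HFD replicate 1 or 2 or CHOW replicate 1, 3, 4 or 5 was left out (adjusted p = 0.058 to 0.080). For the lipid-associated genes Gpnmb and Trem2 the term did not pass, at 1.58 ± 0.77 (adjusted p = 0.36) and 1.73 ± 0.68 (adjusted p = 0.31).

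**Figure D5:**
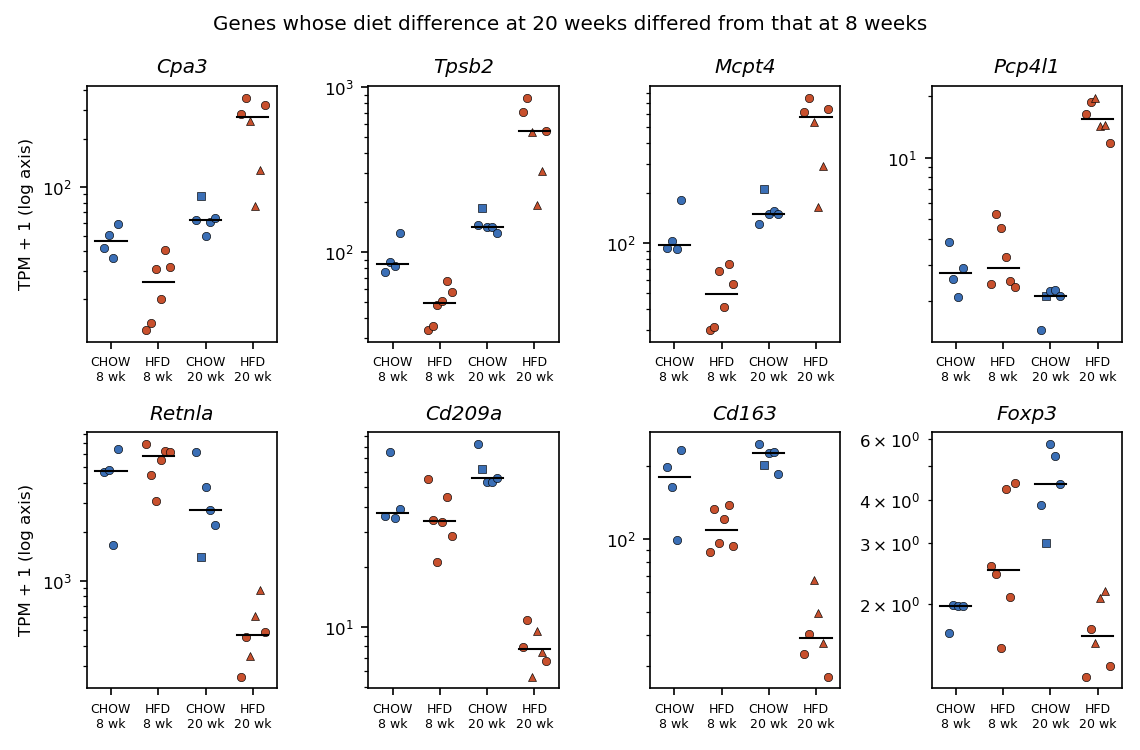
TPM + 1 on a log axis in each library of the 4 groups (CHOW blue, HFD red, at 8 and 20 weeks; median as a bar; square, CHOW replicate 2 and triangles, HFD replicates 3 to 5 of 20 weeks) for 4 genes with a positive and 4 with a negative interaction of diet and time. Tpsb2 and Pcp4l1 were higher in every HFD than in any CHOW library at 20 weeks, and Retnla, Cd209a, Cd163 and Foxp3 lower in every HFD library.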

How the data were processed

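Total RNA of the SVF was made into stranded mRNA libraries (TruSeq) and sequenced on a NextSeq 500. The authors trimmed reads with Trimmomatic, checked them with FastQC and MultiQC, quantified them with Salmon against the gencode M10 protein coding and long non-coding transcripts (mm10), and deposited TPM summed per gene. No version of these tools is given in the sources at hand. The authors tested counts with DESeq2. The deposited files hold TPM, to which a count test does not apply, and TPM keep no read depth, so no counting error could be given.

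Groups came from the sample labels. Genes that reached 1 TPM in 4 or more of the 21 libraries of 8 and 20 weeks (16808 genes) were tested with limma 3.58.1 in R 4.3.3 on log2(TPM + 1), with 1 mean per group, a mean-variance trend and a two-sided test. The contrasts were HFD against CHOW at 20 weeks and that difference minus the one at 8 weeks. The fit was tested on data simulated with independent normal noise and 1 spread per gene for all groups. Such data hold no libraries that stand apart, so that test gives no error rate for the real ones. Alternatives changed the pseudocount (0.1), the filter (none, or 5 TPM), the scaling, the sample weights, the covariates and the libraries. Single libraries were left out only among those of 20 weeks. The 34-week table was not used here.

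Gene lists and the rule for naming genes were chosen with earlier results of these data known. Named were the 12 most risen and 12 most fallen called genes without overlap of libraries, up to 4 called genes of each list in each direction, the qPCR panel, the first 3 genes of each cell type list and up to 5 genes of each interaction direction, each with a mean of 5 TPM or more in 1 group where the rule asks for a call. Atp6v0d1, Cd36, Dcstamp, Fabp4, Gata2, Hdc, Il1b, Il33, Il6, Itgax, Lamp1, Lpl, Mcoln1, Mgl2, Mki67, Mrc1, Pnpla2, Sqstm1 and Tnf lay outside it and were named after their values were seen. Not every gene that the rule allows is printed, and 2 are not reported here. Promoter windows are those of RefSeq GRCm38.p6, matched by symbol.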

Additional observations from a re-analysis of the deposited data

Results flagged for a closer look

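In 356 groups of values (each named gene or library measure within CHOW or HFD at 20 weeks), 1 library lay apart from the rest of its group in 42. The measure is the gap from the outermost library to its nearest neighbour divided by the range of the group, set against Dixon's 95% critical value, which chance passes in about 1 in 20 groups, or 17.8 of 356. Of the 42, 29 were in CHOW and 13 in HFD.

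CHOW replicate 2 accounted for 17. It was the highest of its group for the macrophage and lysosomal genes Gpnmb (gap 0.798 of the range), Atp6v0d2 (0.758), Itgax (0.779), Lpl (0.823), Acp5 (0.791) and Abcg1 (0.765), and for Hk3 (0.875), Rnf128 (0.761), Htr2b (0.742), Mmp3 (0.742), Tnf (0.733), Ccn2 (0.798) and Hdc (0.746). It was the lowest for Dpp4 (0.733), Klrg1 (0.802), Pck1 (0.77) and the adipocyte mean (0.717).

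CHOW replicate 5 was the lowest of its group for the matrix genes Bgn (0.757), Col1a1 (0.83), Col6a3 (0.801), Fn1 (0.757) and Sparc (0.854), for Flt3 (0.849) and for Lep (0.758), and the highest for Gzmb (0.729). CHOW replicate 1 was the highest for Alox15 (0.799), Cd209d (0.866) and F5 (0.741), and the lowest for Pcp4l1 (0.847).

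Among HFD libraries, replicate 3 was the highest for the neutrophil transcripts S100a8 (0.756) and S100a9 (0.656), for Ly6c2 (0.652), Mmp9 (0.632) and the hemoglobin percentage (0.812), and the lowest for Col8a1 (0.639) and Mmp2 (0.643). Replicate 6 was the highest for C3 (0.639), Cfb (0.774), Clec9a (0.65) and Itga5 (0.736), and for Ighv1-11, listed at 0 in the other 5 (1). Replicate 4 was the highest for Gata3 (0.692).

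The diet difference at 20 weeks differed from that at 8 weeks, by the interaction term of limma at an adjusted p under 0.05, for 20 genes named here. Positive terms, on the log2(TPM + 1) scale, were those of Cpa3 (2.70), Fcer1a (2.61), Mcpt4 (2.75), Tpsab1 (3.20), Tpsb2 (2.62), Gzmb (1.52) and Pcp4l1 (2.75). Negative terms were those of Cd163 (-1.82), Lyve1 (-1.96), Mgl2 (-2.35), Cd209a (-2.60), Cd209b (-2.42), Cd209d (-2.86), Retnla (-3.03), Foxp3 (-1.93), Klrg1 (-1.93), Rnase2a (-5.69), Inpp5j (-2.55), Sprr1a (-2.78) and Igkv4-68 (-4.91). Of the 20, 12 passed with any 1 library of 20 weeks left out and 8 did not. No single library of 8 weeks was left out, so dependence on those libraries is unknown.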

How the results depend on the processing

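No gene named as called at 20 weeks changed the sign of its fold change under any alternative, called there or not, and 115 of the 136 passed with any 1 library left out. Of 39 lists with a median beyond 0.2 in size, none changed sign under median-ratio scaling, quantile normalization or removal of hemoglobin, germ cell and seminal vesicle genes. Other settings did change some signs. Without HFD replicates 3 to 5 the B cell median went from -0.24 to 0.26, and that of immediate early and heat shock genes from 0.22 to -0.07. With the adipocyte mean as covariate that of glycolysis and hypoxia went from 0.24 to -0.14, and that of mitochondrial respiratory chain genes from -0.21 to 0.47. The 2405 genes called at 20 weeks became 3613 under median-ratio scaling, 5092 with sample quality weights, 102 with the adipocyte mean as covariate, 947 without HFD replicates 3 to 5, 1351 without these and CHOW replicate 2, and 1253 to 3098 with 1 library left out. Quantile normalization called 3502, removal of those genes 2892 and the 11 libraries of 20 weeks alone 2538. Of the 136 called genes, 20 passed with the covariate and 101 without HFD replicates 3 to 5. Setting aside genes that follow the order of germ cell RNA, an alternative chosen after seeing the data, left 1253 higher and 829 lower. The 50 interactions became 32 with no filter, 84 under median-ratio scaling, 104 under quantile normalization (18 positive and 86 negative against 27 and 23), 400 with quality weights, 111 without HFD replicates 3 to 5 and CHOW replicate 2, and 22 to 153 with 1 library left out. Their split was 25 and 36 with the removal. Causes of these shifts were not tested. CHOW and HFD libraries share replicate numbers, but deviations of same-numbered libraries correlated at only -0.10 to 0.15. With the replicate number as a block, 2352 genes were called at 20 weeks and limma called 0 for the interaction (1960 at an unadjusted p under 0.05), on 7 residual degrees of freedom against 17. Since TPM keep no depth, the precision of genes at a few TPM, such as Foxp3, is unknown.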
